A study of Homo sapiens with 18 samples.

Results

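AP-1 is a family of paired transcription factors, and 8 of its genes were followed across changes in the level of RAD21: FOS, FOSB, FOSL1, FOSL2, JUN, JUNB, JUND and ATF3. They were taken by gene name from the 58735 genes counted in each of 2 tables of raw read counts, and all 8 passed the filter on low counts in both. RAD21 is the kleisin subunit of cohesin, the ring that ties sister chromatids to each other and shapes loops of chromatin. The tested cells were the established human lung adenocarcinoma lines A549 and H358. In A549 and in H358, cells given a lentiviral short hairpin RNA against RAD21 (A549 shRAD21, H358 shRAD21) stood beside cells of the same line given a control hairpin (A549 shNC, H358 shNC). In A549 alone, cells made to overexpress RAD21 (A549 RAD21OE) stood beside cells carrying the empty vector (A549 EV). There were 18 libraries, 3 in every group. How many hairpins were used, whether cells were pooled or cloned, and whether the 3 libraries of a group came from separate cultures was not stated in the sources used, so the p-values below measure the spread between libraries, which may be technical.

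AP-1 proteins carry a basic region that grips DNA and a leucine zipper through which they pair. FOS-type proteins (FOS, FOSB, FOSL1 and FOSL2) bind DNA only as partners of a JUN-type protein, whereas JUN, JUNB and JUND can also pair among themselves, and ATF3 pairs with JUN-type proteins or with itself. The pairs bind the site TGACTCA or the cyclic AMP response element TGACGTCA. FOS, FOSB, JUN, JUNB and ATF3 are immediate early genes, switched on within minutes of a growth factor or a stress, while FOSL1 and FOSL2 respond later and FOSL1 is known as a readout of sustained ERK activity. In epithelial tumours FOSL1 is known for its part in invasion, and JUNB and JUND are often set against JUN as slower or restraining partners.

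Knockdown libraries held 15155077 to 19277568 counts and overexpression libraries 13024640 to 14276335. The 2 sets were given as separate tables of counts, so levels were compared only within each. Levels are given in CPM, read counts scaled to a common library size with a TMM factor. RAD21 itself had 129, 132 and 101 CPM in A549 shRAD21 and 257, 253 and 255 CPM in A549 shNC, 379, 427 and 433 CPM in H358 shRAD21 and 569, 589 and 603 CPM in H358 shNC, and 1520, 1501 and 1306 CPM in A549 RAD21OE and 195, 209 and 194 CPM in A549 EV. The knockdown was thus shallower in H358, where RAD21 was 0.703-fold its control, than in A549, where it was 0.474-fold, and a test of that difference gave an adjusted p of 0.00228. CDKN2A, which A549 has lost, was at 0 in all A549 libraries, and all 5 epithelial markers were detected. Their summed level was 11300 to 14000 CPM in A549 shRAD21 and 7120 to 7550 CPM in A549 shNC, 4600 to 4790 CPM in H358 shRAD21 and 4510 to 4810 CPM in H358 shNC, and 10400 to 13600 CPM in A549 RAD21OE and 8230 to 8430 CPM in A549 EV. Each of the 5 was higher in all A549 shRAD21 libraries than in all A549 shNC libraries, CDH1 at 126 to 157 against 63.9 to 69.2 CPM. In all H358 shRAD21 libraries KRT8, KRT18 and CDH1 were higher than in all H358 shNC libraries. EPCAM (470 to 484 against 525 to 559 CPM) and KRT19 (1250 to 1350 against 1440 to 1550 CPM) were lower there. KRT8 and KRT18 were higher in all A549 RAD21OE libraries than in all A549 EV libraries, and EPCAM and KRT19 overlapped. CDH1 was lower in A549 RAD21OE, at 46.8 to 59.7 against 61.3 to 78.1 CPM. The part of these markers in the results was not tested. Summed markers of blood (4 genes) reached at most 9.25 CPM and of endothelium (3 genes) at most 5.66 CPM. Fibroblast markers (4 genes) summed to 24.8 to 42.4 CPM over all groups, and their part in the results was not tested. In 2 groups the library numbered 3 stood apart: the median gene differed by 0.31 and 0.30 on the log2 scale between A549 shRAD21 replicate 3 and the other 2 libraries, and by 0.27 and 0.23 for A549 RAD21OE replicate 3, while no other pair within a group differed by more than 0.15. For each library, Spearman's rho was taken between GC content (the share of G and C bases) and its deviation from the mean of its comparison's 6 libraries. It was 0.36 in A549 shRAD21 replicate 3, against -0.47 and -0.44 in replicates 1 and 2 and 0.20 to 0.29 in A549 shNC. It was 0.63 in A549 RAD21OE replicate 3, against -0.20 and 0.04 in replicates 1 and 2 and -0.32 to -0.22 in A549 EV. Results that rest on the 2 libraries that stood apart are given with and without them.

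Promoter sequences of 7 of the 8 genes were found in the RefSeq table used (GRCh38.p14), each from 250 bases before to 50 bases after an annotated start, and FOSL1 was not matched. Those of JUN, JUND, FOSL2 and ATF3 are shown because they hold a letter-for-letter match to an AP-1 or related element, and that of JUNB because this gene fell the most in cells overexpressing RAD21. Capitals mark the match, which is written as it reads on the gene's strand, 5′ to 3′. The windows are chr1:58783998-58784297 on the minus strand for JUN, chr19:18281573-18281872 on the minus strand for JUND, chr2:28392608-28392907 on the plus strand for FOSL2, chr1:212565157-212565456 on the plus strand for the upstream start of ATF3, and chr19:12791236-12791535 on the plus strand for JUNB.
JUN: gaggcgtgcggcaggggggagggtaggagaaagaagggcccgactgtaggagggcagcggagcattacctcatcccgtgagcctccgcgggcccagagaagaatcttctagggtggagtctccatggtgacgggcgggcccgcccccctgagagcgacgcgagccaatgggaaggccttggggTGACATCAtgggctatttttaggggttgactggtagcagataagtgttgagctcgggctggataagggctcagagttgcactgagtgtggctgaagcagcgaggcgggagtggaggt
JUND: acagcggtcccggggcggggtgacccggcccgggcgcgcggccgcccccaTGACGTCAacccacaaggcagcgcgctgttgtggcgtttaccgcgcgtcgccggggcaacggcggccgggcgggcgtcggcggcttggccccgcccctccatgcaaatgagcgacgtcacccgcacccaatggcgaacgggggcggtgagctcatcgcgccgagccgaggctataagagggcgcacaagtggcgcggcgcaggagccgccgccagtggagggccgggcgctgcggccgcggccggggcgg
FOSL2: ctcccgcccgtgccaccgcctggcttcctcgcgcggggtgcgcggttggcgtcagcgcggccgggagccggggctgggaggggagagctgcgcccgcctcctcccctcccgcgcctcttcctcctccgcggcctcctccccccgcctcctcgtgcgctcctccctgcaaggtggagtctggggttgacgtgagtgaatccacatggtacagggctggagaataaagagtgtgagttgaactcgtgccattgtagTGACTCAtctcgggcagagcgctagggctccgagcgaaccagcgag
ATF3: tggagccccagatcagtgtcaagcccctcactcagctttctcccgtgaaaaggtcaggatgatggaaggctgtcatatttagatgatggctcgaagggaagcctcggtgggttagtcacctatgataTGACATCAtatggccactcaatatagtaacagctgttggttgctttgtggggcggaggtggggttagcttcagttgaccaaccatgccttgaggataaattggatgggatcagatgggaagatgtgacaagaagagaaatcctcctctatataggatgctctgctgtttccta
JUNB: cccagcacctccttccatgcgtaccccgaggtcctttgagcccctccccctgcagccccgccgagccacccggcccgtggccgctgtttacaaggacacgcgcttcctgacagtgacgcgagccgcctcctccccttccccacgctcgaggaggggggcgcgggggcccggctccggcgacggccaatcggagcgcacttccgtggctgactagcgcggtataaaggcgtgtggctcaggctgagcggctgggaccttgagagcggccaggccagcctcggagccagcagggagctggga

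The JUN promoter held the element TGACATCA, with its first base at position -67, counted from 0 at the start base. The upstream promoter of ATF3 held the same TGACATCA at -123, and that of JUND held the full cyclic AMP response element TGACGTCA at -200. The FOSL2 window held the AP-1 site TGACTCA just past the start, with its first base at 4. On both strands of all 35116 promoters in the table, TGACTCA was found in 4.95%, TGACGTCA in 1.85%, TGACATCA in 2.61% and the CArG box, the site of serum response factor, in 1.29%; none of these elements contains another. The windows of FOS, FOSB, JUNB and the second start of ATF3 held no exact match to the 4 elements, which says only that these letters are not in the window. The windows of JUND (77.0% G and C) and JUNB (71.0%) were the most GC-rich of the 7 genes and those of ATF3 (48.0% and 46.3%) the least.

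The 8 genes differed widely in abundance, and the order differed between the lines. Compared per length, as CPM per kilobase of merged exons, JUND was the highest in A549 shRAD21 (65.0 ± 4.83) and A549 shNC (64.4 ± 0.278), and FOSL1 in H358 shRAD21 (66.6 ± 1.46) and H358 shNC (64.0 ± 2.23; SD, n = 3 each), where its range overlapped that of JUND. FOSB was the lowest in all 6 groups, between 0.145 and 0.380 CPM per kilobase on average. In A549 shNC the order was JUND, JUNB, FOSL2, FOSL1, JUN, ATF3, FOS and FOSB, and only FOSL2 and FOSL1 had overlapping ranges among neighbours. In A549 shRAD21, FOSL2 stood second, and the ranges of FOSL2 and JUNB, of JUNB and FOSL1 and of FOSL1 and JUN overlapped. In H358 shNC and in H358 shRAD21 the order was FOSL1, JUND, JUNB, JUN, FOSL2, FOS, ATF3 and FOSB, with overlapping ranges of FOS and ATF3 in H358 shNC and of JUND and JUNB in H358 shRAD21. In A549 RAD21OE the order was JUND, FOSL1, FOSL2, JUN, JUNB, ATF3, FOS and FOSB, and in A549 EV it was JUNB, FOSL2, JUND, JUN, FOSL1, ATF3, FOS and FOSB. JUND overlapped FOSL1 and JUN overlapped JUNB in A549 RAD21OE, while FOSL2 overlapped JUND and JUN overlapped FOSL1 in A549 EV.

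**Figure D1:**
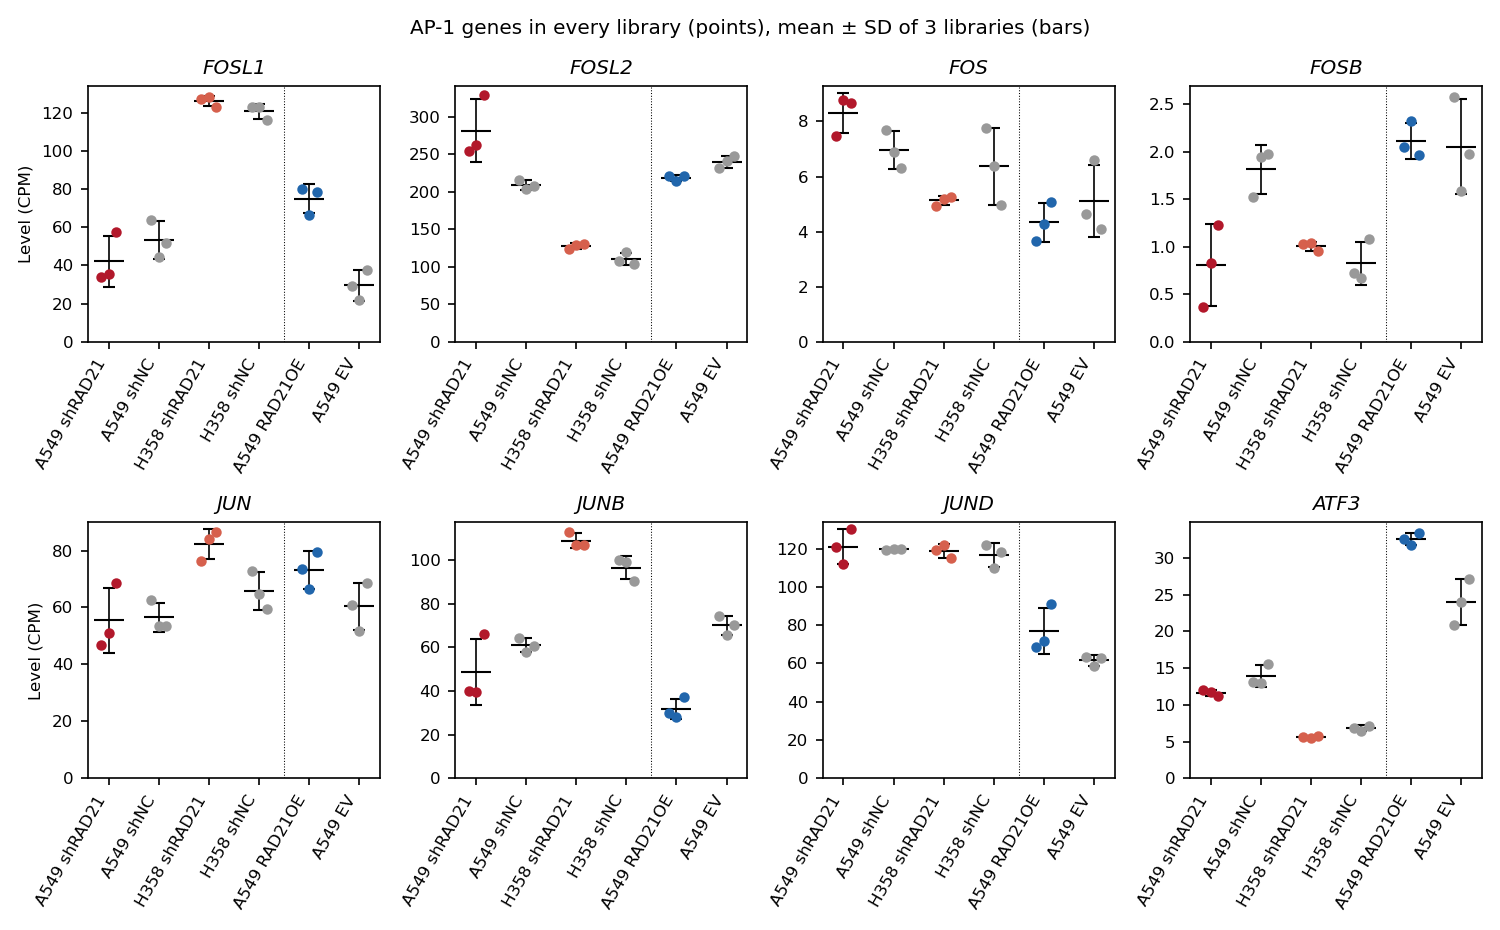
Level of each of the 8 AP-1 genes in CPM (vertical axes, from 0) in every library (points), with the mean and SD of 3 libraries (bars), for each group (horizontal axis). A dotted line parts the knockdown from the overexpression libraries. FOSL1 (66.5 to 80.0 CPM) and ATF3 lie higher and JUNB (28.3 to 37.2 CPM) lies lower in all A549 RAD21OE libraries than in all A549 EV libraries.

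The control cells of the 2 lines differed in which AP-1 genes they expressed most. FOSL1 and JUNB were higher in H358 shNC than in A549 shNC, and FOSL2, FOSB and ATF3 were lower. FOSL1 had 123, 123 and 116 CPM in H358 shNC and 63.9, 44.6 and 51.7 CPM in A549 shNC, and JUNB had 100.2, 99.4 and 90.5 CPM in H358 shNC and 64.3, 57.9 and 60.7 CPM in A549 shNC. In both cases the lowest H358 library lay above the highest A549 library. Fold changes are given as log2 values with their standard error (SE) from edgeR's quasi-likelihood test, and a gene is counted as changed where its p, adjusted by Benjamini-Hochberg over all genes tested, is under 0.05. FOSL1 was 2.26-fold higher in H358 shNC (log2 fold change 1.18, SE 0.15, adjusted p = 9.84e-07) and JUNB 1.59-fold (0.67, SE 0.13, adjusted p = 0.000193). FOSL2 had 108, 120 and 104 CPM in H358 shNC and 216, 204 and 208 CPM in A549 shNC (log2 fold change -0.92, SE 0.09, adjusted p = 1.84e-08). ATF3 had 6.88, 6.42 and 7.18 CPM in H358 shNC and 13.1, 13.0 and 15.6 CPM in A549 shNC (log2 fold change -1.03, SE 0.12, adjusted p = 3.08e-07). FOSB, the least abundant member, had 13, 14 and 18 counts in H358 shNC and 25, 29 and 28 counts in A549 shNC (log2 fold change -1.14, SE 0.35, adjusted p = 0.00638). The ranges of these 5 genes did not overlap. FOS, JUN and JUND did not pass the test, with log2 fold changes of -0.13, 0.22 and -0.04. So 5 of 8 members changed, 2 up and 3 down, where 76.0% of all 18939 genes tested changed (39.1% upward, 36.8% downward) and 81.0% had ranges that did not overlap; a share of members near these backgrounds is not a result about AP-1.

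In A549 cells that overexpressed RAD21, FOSL1 rose and JUNB fell, each by more than any other member, while ATF3 and JUND rose by less. FOSL1 had 80.0, 66.5 and 78.7 CPM in A549 RAD21OE and 29.2, 21.7 and 37.8 CPM in A549 EV. The lowest overexpressing library was well above the highest empty-vector library. FOSL1 was 2.53-fold higher (log2 fold change 1.34, SE 0.16, adjusted p = 8.97e-05). JUNB moved the other way, with 30.1, 28.3 and 37.2 CPM in A549 RAD21OE and 74.4, 65.6 and 70.4 CPM in A549 EV, and again the groups were far apart. JUNB was at 0.455-fold its control (log2 fold change -1.14, SE 0.11, adjusted p = 2.59e-05). Under all 14 alternatives tried the FOSL1 rise was between 1.16 and 1.56 and the JUNB fall between -1.29 and -1.05 on the log2 scale, and each passed the threshold in all 14. Without A549 RAD21OE replicate 3 the values were 1.31 for FOSL1 and -1.26 for JUNB.

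ATF3, a stress-induced member that can repress as well as activate, had 32.6, 31.7 and 33.4 CPM in A549 RAD21OE and 20.9, 24.0 and 27.1 CPM in A549 EV. The 3 overexpressing libraries lay close together and all above the empty-vector libraries, which were more spread. ATF3 rose by a log2 fold change of 0.44 (SE 0.12, adjusted p = 0.0144, 1.36-fold), a call that was lost without A549 EV replicate 1 (0.35, adjusted p = 0.0894) or replicate 2 (0.44, adjusted p = 0.0596). JUND, the JUN-type protein that most cells hold without a stimulus, had 68.8, 71.7 and 90.8 CPM in A549 RAD21OE and 63.6, 58.5 and 62.7 CPM in A549 EV. Its groups did not overlap, but the library that stood apart, A549 RAD21OE replicate 3, was the highest. JUND rose by 0.32 (SE 0.11, adjusted p = 0.0404, 1.25-fold), and by 0.19 without that library (adjusted p = 0.0335). This call missed the threshold in 6 of 14 alternatives, among them without A549 EV replicate 1 (adjusted p = 0.0969), 2 (0.156) or 3 (0.103) and without A549 RAD21OE replicate 2 (0.0536), so it is the least firm of the 4. JUND also has the highest GC content of the 8 genes (69.7% of exon bases, above 99.6% of genes tested), and over all genes tested the log2 fold change rose with GC content (Spearman rho 0.31, a description across genes). With the trends of each library on GC and exon length removed, JUND was at 0.16 (adjusted p = 0.045). The part of GC content in its rise was not tested.

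The other 4 members did not pass the test in the overexpression. JUN, the founding JUN-type member, had 73.6, 66.4 and 79.5 CPM in A549 RAD21OE and 60.9, 51.9 and 68.5 CPM in A549 EV, overlapping ranges (log2 fold change 0.28, SE 0.11, adjusted p = 0.0787). FOSL2, a FOS-type member that responds late to a stimulus, had 221, 214 and 221 CPM in A549 RAD21OE and 232, 241 and 248 CPM in A549 EV; the groups were apart by a small margin (log2 fold change -0.14, SE 0.07, adjusted p = 0.167). FOS, the founding immediate early member, had 3.67 to 5.09 CPM in A549 RAD21OE and 4.11 to 6.60 CPM in A549 EV, and FOSB had 27 to 31 counts in A549 RAD21OE and 21 to 35 counts in A549 EV. In all, 3 of 8 members rose and 1 fell, where 27.8% of the 15462 genes tested changed, 14.1% upward and 13.7% downward. The ranges of 5 members did not overlap, where 45.4% of all genes had such ranges. The median log2 fold change was 0.16 over the members and -0.01 over all genes tested.

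**Figure D2:**
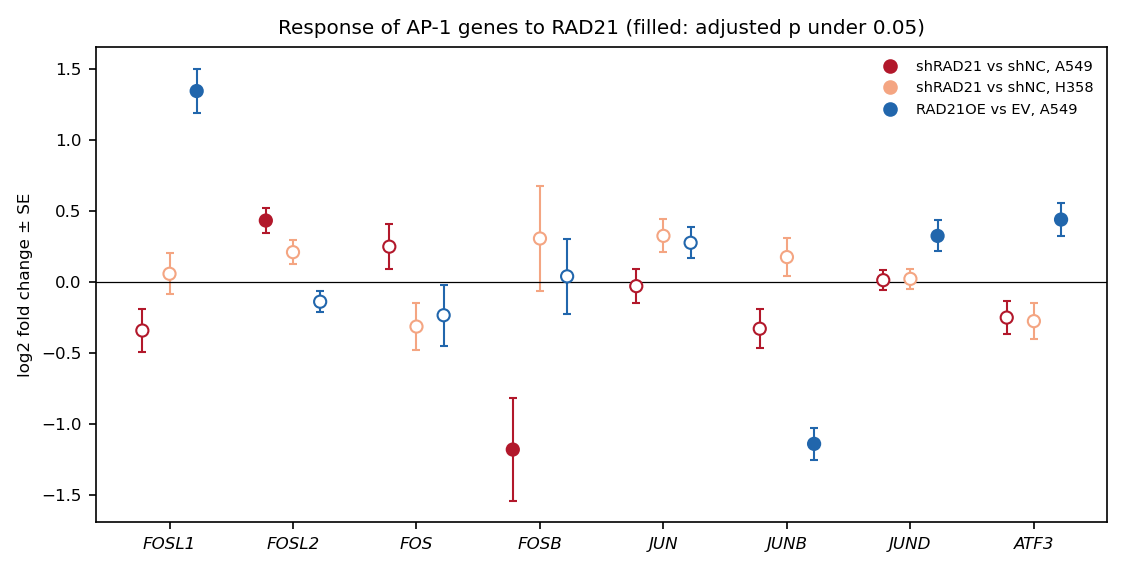
Log2 fold change with its SE (vertical axis) of the 8 AP-1 genes (horizontal axis) for shRAD21 against shNC in A549, shRAD21 against shNC in H358 and RAD21OE against EV in A549; filled points have an adjusted p under 0.05. FOSL1 (1.34) and JUNB (-1.14) in the overexpression and FOSB (-1.18) in the A549 knockdown lie farthest from 0, and no point of the H358 knockdown is filled.

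Knockdown of RAD21 in A549 changed other members: FOSL2 rose and FOSB fell. FOSL2 had 254, 262 and 330 CPM in A549 shRAD21 and 216, 204 and 208 CPM in A549 shNC. All shRAD21 libraries were above all shNC libraries, and the highest was the library that stood apart. FOSL2 was 1.35-fold higher (log2 fold change 0.43, SE 0.09, adjusted p = 0.00098), and without that library it was still higher, by 0.30 (adjusted p = 1.97e-06). The FOSL2 call passed in all 15 alternatives, at 0.30 to 0.50. FOSB, an immediate early gene like FOS, had 6, 13 and 18 counts in A549 shRAD21 and 25, 29 and 28 counts in A549 shNC, equal to 0.367, 0.825 and 1.23 CPM and 1.52, 1.94 and 1.98 CPM. The groups did not overlap, but the level was low and the shRAD21 libraries were spread. FOSB fell by 1.18 on the log2 scale (SE 0.36, adjusted p = 0.0222). That call was lost without A549 shNC replicate 2 (adjusted p = 0.0711) or 3 (0.0679), without A549 shRAD21 replicate 1 (-0.82, 0.117) or 2 (0.0562), and with only the 6 A549 libraries in the fit (0.0585).

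FOSL1 and JUNB, the pair that moved most in the overexpression, depended in the A549 knockdown on 1 library. FOSL1 had 33.8, 35.4 and 57.7 CPM in A549 shRAD21 and 63.9, 44.6 and 51.7 CPM in A549 shNC, so 2 of 3 shRAD21 libraries lay below all controls and the third among them. JUNB had 40.2, 39.6 and 66.1 CPM in A549 shRAD21 and 64.3, 57.9 and 60.7 CPM in A549 shNC, so here too 2 of 3 shRAD21 libraries lay below all controls, while the third lay above them. With all libraries neither passed (FOSL1 -0.34, SE 0.15, adjusted p = 0.117; JUNB -0.33, SE 0.14, adjusted p = 0.0894). Without A549 shRAD21 replicate 3 both did (FOSL1 -0.63, adjusted p = 3.58e-08; JUNB -0.61, adjusted p = 2.76e-10). The 2 shRAD21 libraries then left were those whose levels fell with GC content (Spearman rho -0.47 and -0.44), against shNC libraries at 0.20 to 0.29. The library left out held the least RAD21 of its group, at 101 CPM against 129 and 132 CPM in replicates 1 and 2. In this library with the deepest knockdown, FOSL1 and JUNB were thus not below all controls. The part of knockdown depth in their levels was not tested. With the trends on GC content and length removed and all libraries kept, the values were -0.11 for FOSL1 and -0.04 for JUNB, and neither passed. JUNB (64.9% GC) and FOSL1 (60.1%) are GC-rich too, and over all genes the log2 fold change of this knockdown fell with GC content (Spearman rho -0.33). A trend of the libraries on GC content cannot be told apart here from a response to RAD21 that runs with GC content. JUNB's exons also overlap HOOK2 on the other strand over 14.23% of their length, so its count could hold reads of HOOK2 or miss reads of its own. Whether the counting used strand was not stated in the sources used.

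Of the remaining members, JUN had 47.0, 50.9 and 68.6 CPM in A549 shRAD21 and 62.5, 53.5 and 53.6 CPM in A549 shNC, with overlapping ranges (log2 fold change -0.03, SE 0.12, adjusted p = 0.909), and without A549 shRAD21 replicate 3 it was at -0.21 (adjusted p = 0.0248). FOS had 7.46, 8.76 and 8.66 CPM in A549 shRAD21 and 7.69, 6.89 and 6.31 CPM in A549 shNC (0.25, SE 0.16, adjusted p = 0.277). JUND had 121, 112 and 130.0 CPM in A549 shRAD21 and 119, 120.0 and 120.0 CPM in A549 shNC, overlapping ranges (0.01, SE 0.07, adjusted p = 0.942). ATF3 had 12.05, 11.7 and 11.2 CPM in A549 shRAD21 and 13.1, 13.0 and 15.6 CPM in A549 shNC; the ranges were apart but the change did not pass (-0.25, SE 0.12, adjusted p = 0.124). Both FOS (0.45, adjusted p = 0.0259) and JUND (0.38, adjusted p = 0.000759) passed as higher where GC and length trends were removed. In all, 1 member rose and 1 fell, where 25.2% of 18939 genes changed, 14.4% upward and 10.9% downward, and 3 members had ranges apart, where 32.7% of all genes did. Without A549 shRAD21 replicate 3, 5 members passed, where 43.0% of the 19584 genes then tested did. The median over the members was -0.14, against 0.00 over all genes tested.

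**Figure D3:**
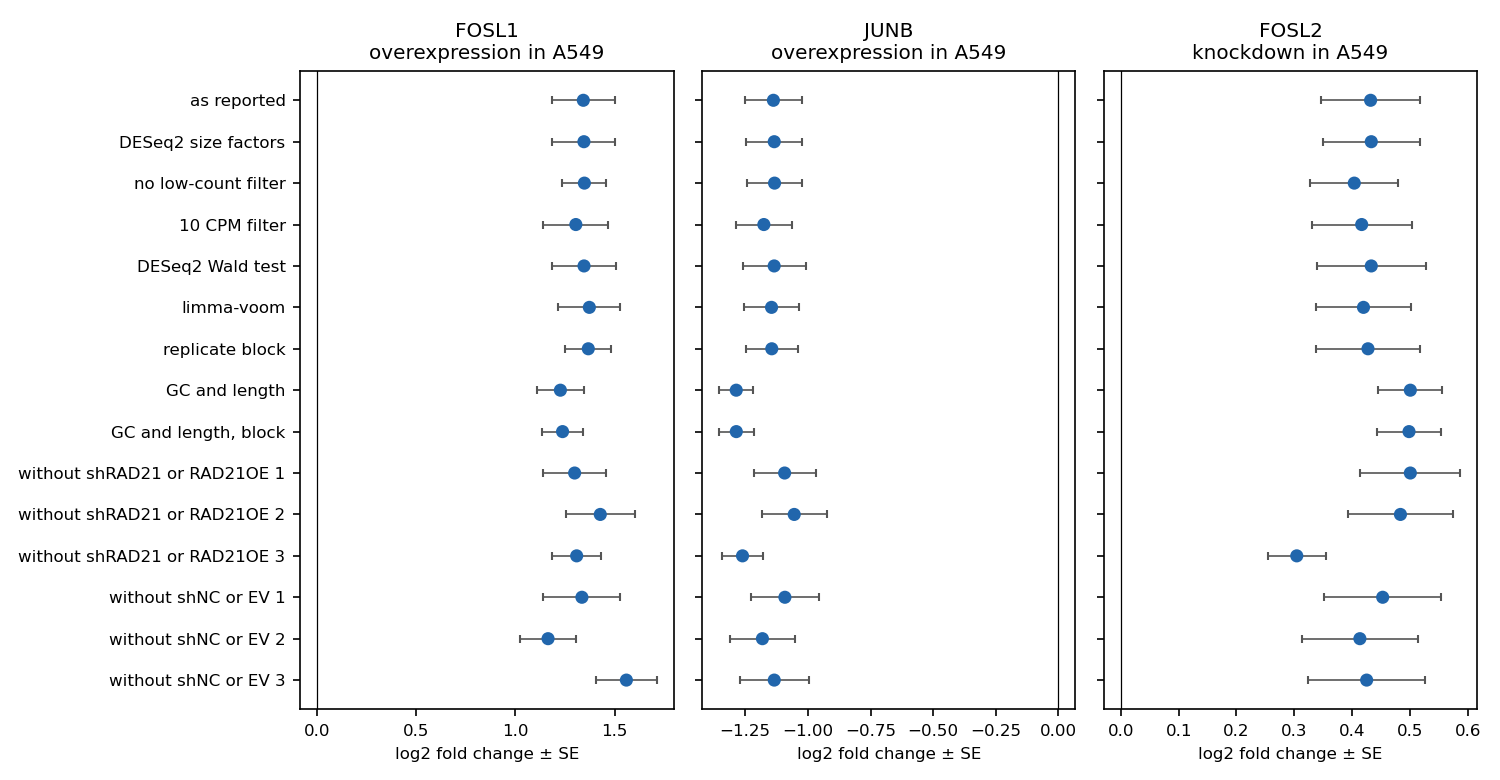
Log2 fold change with its SE (horizontal axes) of FOSL1 and JUNB for RAD21OE against EV and of FOSL2 for shRAD21 against shNC, all in A549, as reported and under 14 other settings (vertical axis), with 0 as a vertical line; the fit of only the 6 A549 libraries, at 0.40 for FOSL2, is not drawn. All points are filled, which marks an adjusted p under 0.05, and FOSL2 is lowest, at 0.30, without A549 shRAD21 replicate 3.

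In H358 no member passed the test after knockdown of RAD21, which was also the milder knockdown. FOSL2, JUN and JUNB were each somewhat higher and ATF3 somewhat lower in all shRAD21 libraries than in all shNC libraries. JUN had 76.2, 84.1 and 86.5 CPM in H358 shRAD21 and 72.7, 64.9 and 59.5 CPM in H358 shNC (log2 fold change 0.32, SE 0.12, adjusted p = 0.0944). FOSL2 had 124, 129 and 131 CPM in H358 shRAD21 and 108, 120.0 and 104 CPM in H358 shNC (0.21, SE 0.09, adjusted p = 0.153). ATF3 had 5.57, 5.55 and 5.78 CPM in H358 shRAD21 and 6.88, 6.42 and 7.18 CPM in H358 shNC (-0.28, SE 0.13, adjusted p = 0.207). In these 3 genes the ranges of the groups did not overlap, and no adjusted p was under the threshold. JUNB had 113, 107 and 107 CPM in H358 shRAD21 and 100.2, 99.4 and 90.5 CPM in H358 shNC (0.18, SE 0.13, adjusted p = 0.471). FOSL1, the most abundant member per length in this line, had 127, 128 and 123 CPM in H358 shRAD21 and 123, 123 and 116 CPM in H358 shNC (0.06, SE 0.14, adjusted p = 0.869). FOS (-0.31), FOSB (0.31) and JUND (0.02) also did not pass, and their ranges overlapped. The edgeR count was 0 of 8, DESeq2's Wald test and limma-voom also gave 0, and 3 members (FOSL2, JUN and ATF3) had an unadjusted p under 0.05; 8.4% of all genes tested changed, 3.78% upward and 4.62% downward. The ranges of 4 members were apart, where 36.1% of all genes had such ranges, and the median was 0.12 over the members and 0.00 over all genes. The pooled fit takes its spread from all 12 libraries, A549 shRAD21 replicate 3 included. With only the 6 H358 libraries, whose replicates lay closer, JUN (0.33, adjusted p = 0.000207), FOSL2 (0.21, adjusted p = 0.00225) and JUNB (0.18, adjusted p = 0.00887) passed as higher, where 26.0% of the 17215 genes tested in that fit changed, 12.7% upward.

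The difference between the 2 knockdowns was tested directly, as the A549 log2 fold change minus that of H358. No member passed (0 of 8 by edgeR, 4 with an unadjusted p under 0.05, 1 by DESeq2's Wald test and 2 by limma-voom), where 17.6% of all genes tested did, 9.94% upward and 7.61% downward. The largest differences were those of FOSB (-1.48, SE 0.52, adjusted p = 0.0562), FOS (0.56, SE 0.23, adjusted p = 0.0987) and JUNB (-0.50, SE 0.19, adjusted p = 0.0756). FOSL1 differed by -0.40 (adjusted p = 0.208), JUN by -0.35 (0.155), FOSL2 by 0.22 (0.225), ATF3 by 0.03 (0.978) and JUND by -0.01 (1.0). Without A549 shRAD21 replicate 3, 4 members passed, where 37.5% of all genes did. A fall of FOSB in A549 alone is therefore not shown by this test.

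The opposite moves of FOSL1 and JUNB in the overexpressing cells can be read in the make-up of the AP-1 transcripts, given as each gene's share of the summed level per kilobase of the 8 genes, a measure of mRNA and not of protein. FOS-type genes made up 47.6%, 45.3% and 42.7% of the pool in A549 RAD21OE and 33.8%, 35.1% and 36.4% in A549 EV. FOSL1 alone gave 27.0%, 23.9% and 23.9% in A549 RAD21OE and 10.5%, 8.48% and 12.9% in A549 EV. JUNB gave 10.5%, 10.5% and 11.7% in A549 RAD21OE and 27.8%, 26.6% and 25% in A549 EV. The ratio of FOS-type to JUN-type level was thus 1.01, 0.919 and 0.812 in A549 RAD21OE and 0.54, 0.579 and 0.615 in A549 EV, with the groups apart. The summed level itself overlapped, at 157, 148 and 174 CPM per kilobase in A549 RAD21OE and 147, 136 and 155 in A549 EV. In the A549 knockdown the FOSL2 share was 22.3%, 23.3% and 22.2% in A549 shRAD21 and 16.1%, 16.8% and 16.5% in A549 shNC, groups that were tight and apart. The FOS-type share there was 35.1%, 37.0% and 38.3% in A549 shRAD21 and 35.6%, 32.2% and 33.4% in A549 shNC, which overlapped. In H358 the FOS-type share overlapped as well, at 36.6% to 37.0% in H358 shRAD21 and 36.8% to 38.6% in H358 shNC.

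**Figure D4:**
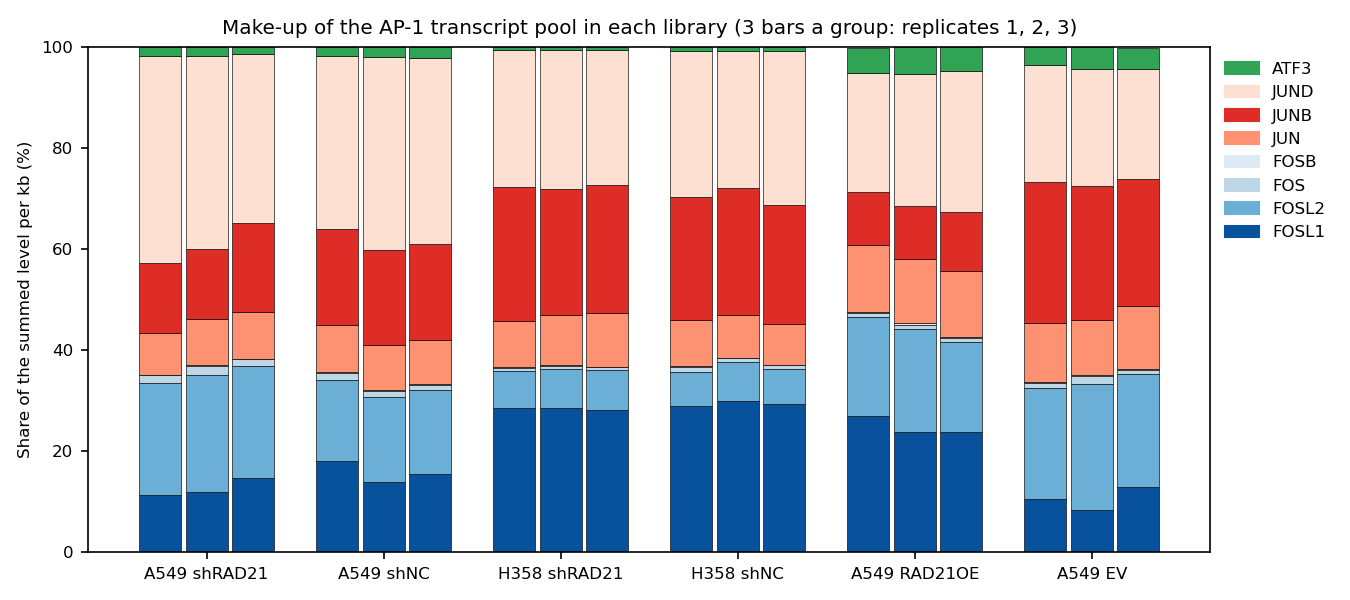
Share of each AP-1 gene in the summed level per kilobase of the 8 genes (vertical axis, percent, stacked to 100) in each library (bars, replicates 1, 2 and 3 from left to right within a group). The JUNB segment is 10.5% to 11.7% in A549 RAD21OE and 25% to 27.8% in A549 EV, and the FOSL1 segment is 23.9% to 27.0% and 8.48% to 12.9% in these groups.

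Genes around AP-1 were followed in 6 lists. The share of a list that changed is given beside its counts, and over all genes tested that share was 25.2% in the A549 knockdown, 8.4% in the H358 knockdown and 27.8% in the overexpression. The first holds other basic leucine zipper genes that pair with AP-1 or share its sites, 16 in all, of which the knockdown fit tested 15 and the overexpression fit 12. In the A549 knockdown 3 rose and 3 fell (40.0%, median 0.10). ATF2, a partner of JUN, rose to 53.4 ± 11.6 CPM in A549 shRAD21 against 39.5 ± 1.24 CPM in A549 shNC (SD, n = 3 each; log2 fold change 0.44, adjusted p = 0.0102). MAFF, a small MAF protein with no activation domain, fell to 4.35 ± 0.196 CPM in A549 shRAD21 against 12.8 ± 0.336 CPM in A549 shNC (-1.56, adjusted p = 1.14e-07), and NFE2L1 fell as well (-0.44, adjusted p = 0.000188). In the H358 knockdown 1 rose, MAFA (1.75, adjusted p = 0.017; 0.685 CPM in H358 shRAD21 and 0.198 CPM in H358 shNC), and none fell by edgeR (6.67%, median -0.05). The MAFA call was lost when any H358 library but shRAD21 replicate 1 was left out, with adjusted p up to 0.0722, DESeq2's Wald test gave 0 higher, and both that test and limma-voom gave 1 lower. In the overexpression 5 rose and 2 fell (58.3%, median 0.12). NFE2L2, the master factor of the antioxidant response, rose to 114 ± 5.41 CPM in A549 RAD21OE against 89.3 ± 5.70 CPM in A549 EV (0.35, adjusted p = 0.00817), and MAF fell to 0.243 ± 0.049 CPM in A549 RAD21OE against 1.84 ± 0.407 CPM in A549 EV (-2.87, adjusted p = 0.000306). ATF2 fell there (-0.44, adjusted p = 0.0218), a call lost without A549 EV replicate 1 (adjusted p = 0.0987) or 2 (0.0866) or A549 RAD21OE replicate 2 (0.0521). These counts lean on single libraries: without A549 shRAD21 replicate 3 the A549 knockdown gave 5 higher and 5 lower, without A549 shRAD21 replicate 1 or 2 it gave 0 higher, and without A549 EV replicate 1 the overexpression gave 0 higher.

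The second list holds 19 genes that act upstream of FOS and JUN: kinases, serum response factor and its partners, and the transcription factors CREB1, MEF2A and MEF2D. After knockdown in A549 5 rose and 3 fell (42.1%, median 0.07). MAP3K1, which feeds the JNK and ERK cascades, rose to 23.3 ± 4.46 CPM in A549 shRAD21 against 13.1 ± 1.24 CPM in A549 shNC (0.83, adjusted p = 6.46e-05). ELK3, an ETS-family partner of serum response factor, fell to 45.6 ± 7.23 CPM in A549 shRAD21 against 88.5 ± 2.71 CPM in A549 shNC (-0.96, adjusted p = 6.43e-07). In the H358 knockdown 1 rose and 1 fell (10.5%, median -0.08): MAPK9, which encodes JNK2, rose (0.39, adjusted p = 0.00326) and RPS6KA3, which encodes the kinase RSK2, fell (-0.51, adjusted p = 0.00347). In the overexpression 1 rose and 3 fell (21.1%, median 0.00), with SRF, serum response factor itself, at 54.8 ± 3.32 CPM in A549 RAD21OE against 41.3 ± 1.48 CPM in A549 EV (0.41, adjusted p = 0.00649) and ELK3 again lower (-0.55, adjusted p = 0.00313). Without A549 shRAD21 replicate 3 the A549 knockdown gave 8 higher and 6 lower, and it gave 3 higher without A549 shNC replicate 2 or A549 shRAD21 replicate 1 or 2.

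The third list holds 13 genes linked to the turnover or activity of AP-1 mRNA and protein. In the A549 knockdown 4 rose and none fell by edgeR (30.8%, near the 25.2% of all genes; median 0.18). ZFP36L2 and ZFP36, which bind AU-rich elements in messages such as FOS and speed their decay, were among the 4: ZFP36L2 had 223 ± 27.8 CPM in A549 shRAD21 and 118 ± 4.75 CPM in A549 shNC (0.92, adjusted p = 9.48e-08), and ZFP36 had 53.8 ± 3.63 CPM in A549 shRAD21 and 41.1 ± 1.97 CPM in A549 shNC (0.39, adjusted p = 0.00413). In H358 ZFP36 was the only one that passed, lower at 23.4 ± 0.860 CPM in H358 shRAD21 against 30.0 ± 3.62 CPM in H358 shNC (-0.36, adjusted p = 0.0261; 7.69%, against 8.4% of all genes, median -0.05). That call was lost when any H358 library but shNC replicate 2 was left out, with adjusted p up to 0.174. In the overexpression 1 fell, ZFP36L1, of the same family (-0.59, adjusted p = 0.000256; 7.69%, median 0.03). Without A549 shRAD21 replicate 3 the A549 knockdown gave 7 higher and 3 lower.

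The fourth list holds 34 genes known from other work as AP-1 targets, of which the knockdown fit tested 30 and the overexpression fit 26. After knockdown in A549 7 rose and 11 fell (60%, median 0.00). LAMB3, a laminin chain of the basement membrane, rose to 53.1 ± 4.32 CPM in A549 shRAD21 against 25.7 ± 1.40 CPM in A549 shNC (1.05, adjusted p = 9.28e-09), and the cytokine gene IL11 rose to 56.8 ± 15.4 CPM in A549 shRAD21 against 23.1 ± 0.304 CPM in A549 shNC (1.29, adjusted p = 2.49e-06). GJA1, the gap junction protein connexin 43, fell to 77.8 ± 8.36 CPM in A549 shRAD21 against 167 ± 7.32 CPM in A549 shNC (-1.10, adjusted p = 6.68e-07). In the H358 knockdown 1 rose and 5 fell (20.0%, median -0.06). The receptor kinase gene AXL rose (1.17, adjusted p = 2.42e-05), and the EGF receptor ligands AREG, at 147 ± 3.52 CPM in H358 shRAD21 against 293 ± 17 CPM in H358 shNC (-0.996, adjusted p = 1.87e-07), and EREG (-0.69, adjusted p = 1.3e-05) fell. In the overexpression 8 rose and 7 fell (57.7%, median 0.09). AREG rose to 48.2 ± 2.04 CPM in A549 RAD21OE against 29.6 ± 2.97 CPM in A549 EV (0.70, adjusted p = 0.000446), while IL11 (-1.02, adjusted p = 0.00015) fell. The count of lower genes in the overexpression was 3 without A549 RAD21OE replicate 2 and 10 without replicate 3.

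The fifth list holds 15 other immediate early genes, 13 of them tested, which are switched on by the same signals as FOS. In the A549 knockdown none rose by edgeR and 6 fell (46.2%, median -0.33), among them IER3, at 67.0 ± 2.34 CPM in A549 shRAD21 against 112 ± 2.92 CPM in A549 shNC (-0.74, adjusted p = 2.29e-07), and CCN2, a matrix protein gene, at 19.1 ± 1.96 CPM in A549 shRAD21 against 38.4 ± 3.40 CPM in A549 shNC (-1.01, adjusted p = 1.33e-05). In the H358 knockdown 3 rose and none fell by edgeR (23.1%, median -0.01), with BTG2, a brake on the cell cycle, at 2.06 ± 0.515 CPM in H358 shRAD21 against 1.05 ± 0.248 CPM in H358 shNC (0.97, adjusted p = 0.0145) and CCN1 higher by 0.44 (adjusted p = 0.0359, and 0.057 with the replicate block). DESeq2's Wald test and limma-voom each gave 1 lower there, and leaving out any of the 6 H358 libraries left 0 or 1 higher. In the overexpression 8 rose and 2 fell (76.9%, median 0.33). CCN1 rose to 89.0 ± 4.61 CPM in A549 RAD21OE against 53.7 ± 5.72 CPM in A549 EV (0.73, adjusted p = 0.00021), KLF4 rose (0.66, adjusted p = 0.00224), and BTG2 fell (-0.47, adjusted p = 0.00725). The rise was 5 genes without A549 EV replicate 1, and the fall was 5 without A549 RAD21OE replicate 3 and 0 without A549 EV replicate 2. With GC and length trends removed, 4 rose in the A549 knockdown.

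The sixth list holds 10 genes of the ATF4 stress response, of which ATF3 is a known member, and here the knockdowns of both lines gave mainly falls. With RAD21 knocked down in A549 none rose by edgeR and 8 of 10 fell (80.0%, median -0.61), and in the H358 knockdown 1 rose and 7 fell (80.0%, median -0.50). Of all genes tested, 10.9% fell in the A549 knockdown and 4.62% in the H358 knockdown. DDIT4, an inhibitor of mTORC1, fell to 98.5 ± 8.40 CPM in A549 shRAD21 against 182 ± 5.62 CPM in A549 shNC (-0.88, adjusted p = 2.72e-07) and to 14.3 ± 1.53 CPM in H358 shRAD21 against 28.2 ± 2.17 CPM in H358 shNC (-0.98, adjusted p = 7.88e-06). CHAC1, which degrades glutathione, fell in A549 (-1.71, adjusted p = 1.77e-05) and in H358 (-1.22, adjusted p = 0.000203). ATF3 itself was lower in every shRAD21 library than in every shNC library of the same line, in A549 and in H358, but passed in neither (-0.25, adjusted p = 0.124 in A549; -0.28, adjusted p = 0.207 in H358). CDKN1A, which encodes the cell cycle inhibitor p21, went opposite ways: it fell in A549 (-0.57, adjusted p = 0.000147) and rose in H358 (0.38, adjusted p = 0.0192). The rise in H358 was lost when any H358 library but shNC replicate 1 was left out, with adjusted p up to 0.12. In the overexpression, where ATF3 rose, 2 rose and 3 fell (50%, median -0.01): PPP1R15A (0.38, adjusted p = 0.00844) and ATF4 (0.30, adjusted p = 0.0186) were higher and DDIT4 (-0.39, adjusted p = 0.0264) and GADD45A (-0.33, adjusted p = 0.0243) lower. The falls numbered 7 to 9 in A549 and 5 to 6 in H358 when each library was left out in turn. In the overexpression 0 rose without A549 EV replicate 1 or 2, and 0 fell without A549 EV replicate 2 or 3 or A549 RAD21OE replicate 2.

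**Figure D5:**
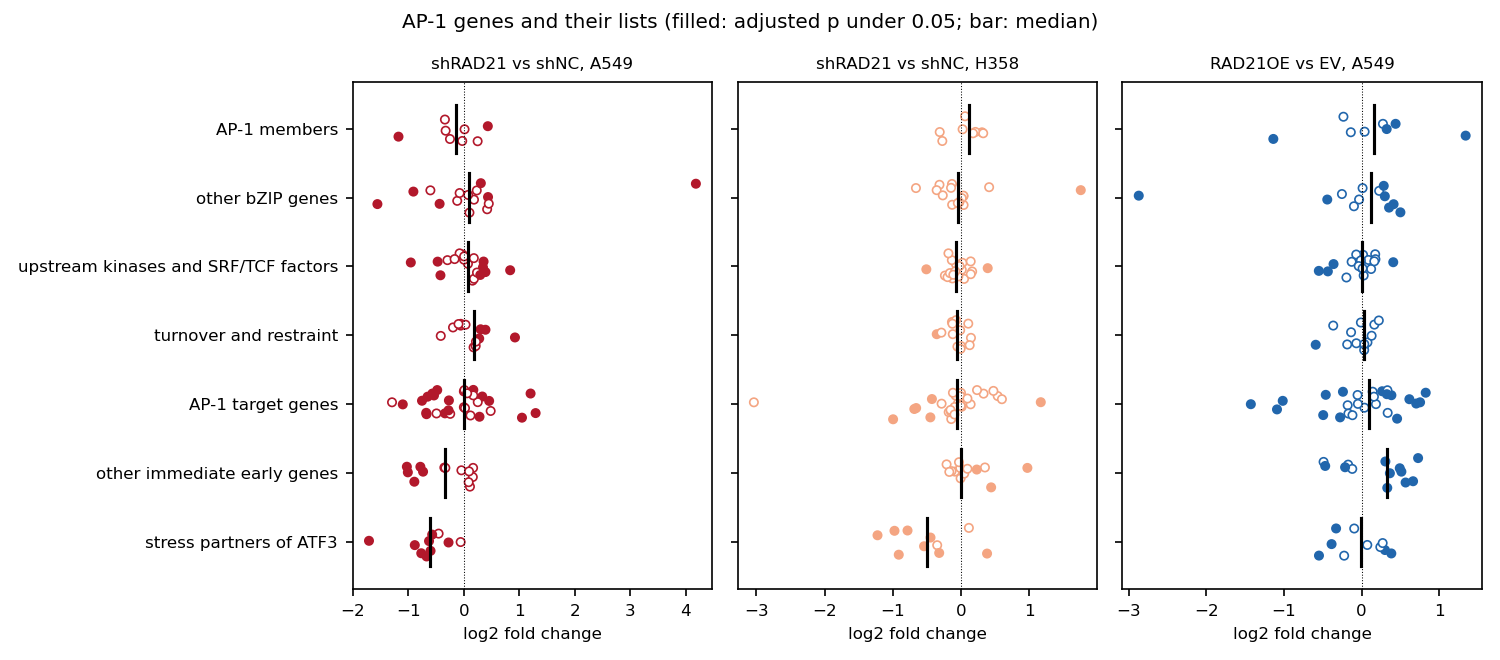
Log2 fold change (horizontal axes) of the 8 AP-1 genes and of each tested gene of the 6 lists (rows; vertical scatter within a row carries no value) in the 3 comparisons, with the median of each row as a bar; filled points have an adjusted p under 0.05. The stress list is centred below 0 in both knockdowns, at -0.61 in A549 and -0.50 in H358, and the immediate early list is centred at -0.33 in the A549 knockdown and 0.33 in the overexpression.

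The genomic neighbours of the members, the nearest tested protein-coding gene on each side, give a local view. FOSB (chr19:45467995-45475179, hg38) lies inside the span of ERCC1, a DNA repair gene on the other strand, with no shared exon bases, and the near edge of RTN2 is 10.1 kb beyond. Whether the counting used strand was not stated in the sources used, so reads of unspliced ERCC1 transcripts could be counted as FOSB. Their part in the low FOSB counts was not tested. In the A549 knockdown both neighbours fell with FOSB: ERCC1 by a log2 fold change of -0.69 (SE 0.12, adjusted p = 0.000391) and RTN2 by -0.79 (SE 0.18, adjusted p = 0.00393). FOSL1 (chr11:65892049-65900573) has CCDC85B 0.4 kb away and C11orf68 16.2 kb away, and both rose with it in the overexpression, by 0.61 (adjusted p = 0.00208) and 0.47 (adjusted p = 0.0184). The C11orf68 call was lost without A549 EV replicate 1 (adjusted p = 0.0797) or 2 (0.103). FOSL2 (chr2:28392448-28417312) rose in the A549 knockdown together with BABAM2, 53.5 kb away (0.41, adjusted p = 0.00281), while PLB1, 39.8 kb away, did not pass (0.01, adjusted p = 1.0). JUND (chr19:18279760-18281622) rose in the overexpression beside IQCN, 5.3 kb away (0.86, adjusted p = 0.0174), and LSM4, 24.6 kb away (0.37, adjusted p = 0.0108). IQCN was lost without A549 EV replicate 1 (adjusted p = 0.0814) or 3 (0.0723) or A549 RAD21OE replicate 2 (0.0585), and LSM4 without A549 EV replicate 2 (0.0586) or 3 (0.054). ATF3 (chr1:212565334-212620777) rose there beside BATF3, 65.6 kb away, itself a basic leucine zipper gene (0.50, adjusted p = 0.0192), while NENF, 119.0 kb away, did not pass (0.15, adjusted p = 0.397). BATF3 was lost without A549 EV replicate 1 (adjusted p = 0.071) or 3 (0.0899). JUNB (chr19:12791496-12793315) fell there, HOOK2 did not pass (-0.27, adjusted p = 0.155), and PRDX2 was not tested in the overexpression. The neighbours of JUN (MYSM1 and FGGY) and of FOS (TMED10 and JDP2) did not pass in any of the 3 comparisons. Whether these neighbours move together more often than other adjacent genes was not tested.

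For the 6 members that passed in at least 1 comparison, the genes most alike over the 18 libraries were sought among 10722 protein-coding genes, by Pearson's r of log2 CPM after the mean of each comparison's 6 libraries was removed. These values are a description: the libraries share depth and base composition, and the genes were picked for a high r. FOSL1 was closest to CXXC1 (r = 0.96), OSGIN1 (0.95) and MAP2K3 (0.95), and OSGIN1, an oxidative stress gene, rose by 1.99 in the overexpression (adjusted p = 1.22e-07). Among those closest to JUNB were COL6A2 (0.96) and PARP10 (0.95), whose GC content of 65.3% and 66.0% resembles its own, and COL6A2 fell by 1.24 in the overexpression (adjusted p = 0.000128). FOSL2 was closest to VDR (0.93), PDXK (0.91) and TCN2 (0.91), and VDR, the vitamin D receptor, rose by 1.39 in the A549 knockdown (adjusted p = 1.09e-06). ATF3 was closest to KDM1B (0.90), DUSP5 (0.90) and GTF2E2 (0.90), and FOSB to NES (0.89), UFD1 (0.89) and LZTS3 (0.87). Among those closest to JUND were CRTC2 (0.94) and ANAPC11 (0.93).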

How the data were processed

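RNA sequencing was done on total RNA extracted with TRIzol, with libraries from the VAHTS Universal V6 kit, per the labels' protocols. The deposited tables hold raw counts of reads per gene as the authors made them, 1 table for the knockdown and 1 for the overexpression; the programs fastp, HISAT2 2.0.5 and featureCounts 1.5.0-p3 and the build hg38 were used, per the submitters' processing notes. Strandedness and read selection are not given in the sources used here. All 58735 genes matched GENCODE release 29, from which exon lengths, GC content and coordinates were taken. Every count column had a sample.

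Each table was fitted with 1 mean per group in edgeR 4.0.16 (R 4.3.3): filterByExpr, TMM, quasi-likelihood F-test, two-sided, Benjamini-Hochberg over all genes tested, threshold 0.05. CPM use TMM-scaled library sizes, and mean ± SD are over 3 libraries. Log2 CPM for likeness used a prior count of 2 and genes with a mean of at least 4 CPM. The test was run on simulated counts that held no trend on GC content and no library that stood apart, so that check does not cover these features of the data. FOSB, with 6 to 35 counts per library, has the least depth of the members.

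The members, the 6 lists and the alternatives were chosen with earlier results of these data known. Genes named are RAD21, the 8 members, up to 2 risers and 2 fallers with the smallest adjusted p in each list and comparison, the neighbours, and the 3 genes most alike; CHAC1 and CDKN1A in both lines and ATF3 beside its list are given for comparison, where outside this rule after their values were seen. Some genes that this rule names are not reported here. The 5 comparisons were the 3 RAD21 contrasts, the difference between the knockdowns, and H358 shNC against A549 shNC. Alternatives were DESeq2 1.42.0 size factors, DESeq2's Wald test, limma-voom (limma 3.58.1), no filter on low counts, at least 10 CPM in 3 libraries, the replicate number as a block, trends on GC content and length removed per library (lowess span 0.3), only the 6 libraries of a line, each of 18 libraries left out in turn, and library totals without TMM for levels.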

Additional observations from a re-analysis of the deposited data

Results flagged for a closer look

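Among 50 genes named from the lists, the neighbours and the members, the response to RAD21 knockdown differed between the lines for 23 by edgeR's test of the difference itself (A549 log2 fold change minus that of H358, adjusted p under 0.05), and none of the 23 is an AP-1 member. Over all genes tested 17.6% differed, and the list genes were themselves named for their small adjusted p in the knockdowns, so the 2 shares are not comparable. In 13 the difference was negative, so the A549 value was the lower one. Among other basic leucine zipper genes these were MAFA (-2.36), MAFF (-1.41) and NFE2L1 (-0.41). Among immediate early genes they were BTG2 (-1.32), CCN2 (-0.84), CCN1 (-0.77) and IER3 (-0.60), and BTG2 and CCN1 had values of opposite sign in the lines (-0.35 in A549 and 0.97 in H358 for BTG2, -0.33 in A549 and 0.44 in H358 for CCN1). The CCN1 value in A549 did not pass the test. In H358 the BTG2 rise was lost in 3 of 15 alternatives (adjusted p up to 0.0938) and the CCN1 rise in 6 of 15 (up to 0.16). CDKN1A differed by -0.95, with a fall in A549 and a rise in H358, and that rise was lost when any of 5 of the 6 H358 libraries was left out (adjusted p up to 0.12). The serum response factor partner ELK3 differed by -0.72 and MEF2D by -0.36. The AP-1 targets AXL (-0.89) and FTH1 (-0.36) and FOSB's neighbour ERCC1 (-0.72) complete the group. AXL rose in both lines, by 0.28 in A549 and 1.17 in H358.

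In 10 genes the difference was positive. IL11 (1.44), LAMB3 (1.05), EREG (0.74) and AREG (0.32) are AP-1 targets, of which IL11 and LAMB3 rose in A549 and were at -0.15 and -0.01 in H358. AREG fell in both lines, at -0.68 in A549 and -0.996 in H358. ZFP36L2 differed by 0.98 and ZFP36 by 0.75, and ZFP36 rose in A549 (0.39) and fell in H358 (-0.36), a fall that was lost when any of 5 of the 6 H358 libraries was left out (adjusted p up to 0.174). The kinases MAP3K1 (0.87) and RPS6KA3 (0.86), the basic leucine zipper gene ATF2 (0.79) and FOSL2's neighbour BABAM2 (0.50) followed. The knockdown of RAD21 itself was deeper in A549, and the part of its depth in these differences was not tested.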

How the results depend on the processing

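The number of AP-1 members counted as changed in the A549 knockdown was 2, and 4 with no filter on low counts, 1 with at least 10 CPM in 3 libraries (which left FOS and FOSB untested), 4 with GC and length trends removed, 4 with the replicate block added to that, 1 with only the 6 A549 libraries, and 1 to 5 with single libraries left out, the 5 without A549 shRAD21 replicate 3. In the H358 knockdown it was 0, against 1 with no filter, 2 with GC and length trends removed, 2 with the replicate block added to that, and 3 with only the 6 H358 libraries. For the difference between the knockdowns it was 0, against 3 with no filter, 1 by DESeq2's Wald test, 2 by limma-voom, 3 with GC and length trends removed, 3 with the replicate block added to that, and 0 to 4 with single libraries left out. In the overexpression it was 4, and 2 to 5 with single libraries left out, the 2 without A549 EV replicate 1 or 2, where 15.4% and 13.7% of all genes passed. For H358 shNC against A549 shNC it was 5 and stayed within 1.5 times under the alternatives run. Values past the threshold with a sign opposite to that reported came from removing GC and length trends: JUND in the difference (0.52, and 0.51 with the replicate block) and JUND in H358 shNC against A549 shNC (0.19, and 0.19 with the block). The cause was not tested. Replicate numbers were not taken to pair the samples, since no same-numbered pair's deviations from the group means correlated above 0.1. The replicate block alone gave 2, 0, 0, 5 and 5 members in the A549 knockdown, the H358 knockdown, the difference, the overexpression and the comparison of the lines. Over all genes it gave 508 higher and 616 lower in the H358 knockdown, against 716 and 875 without it. Without A549 shRAD21 replicate 3 the A549 knockdown gave 4537 higher and 3893 lower genes, against 2721 and 2059 with it.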
